A study of Homo sapiens with 21 samples.

Results

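The genes described here are 10 cadherins, CDH2, CDH4, CDH6, CDH7, CDH8, CDH10, CDH11, CDH12, CDH13 and CDH18, out of 60728 gene rows measured by RNA-Seq in the human neuroblastoma line SK-N-BE(2). They were chosen by their values against Control in these same libraries, with CDH7 taken as a gene that was higher where CDH2 and CDH11 were lower, so their levels against Control are given as a description with no test. SK-N-BE(2) is an established MYCN-amplified line. The study asked what silencing ARID1A and ARID1B, the DNA-binding subunits of the BAF form of the SWI/SNF chromatin remodeller, does to gene expression, and RNA was taken 72 h after transduction. All 21 libraries were from cells transduced with lentivirus carrying shRNA plasmids, short hairpin RNAs that lower a transcript. The 7 conditions of 3 libraries each were Control, a non-silencing shRNA, and those labelled shARID1A.2 and shARID1A.4, shARID1B.2 and shARID1B.3, and also shARID1A/B.2.3 and shARID1A/B.4.2. Each silenced condition is 1 shRNA or 1 combination in 1 cell line, so the sequence of an shRNA and the degree of silencing cannot be told apart. In bulk RNA, fewer cells of a type and less RNA per cell cannot be told apart either.

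Cadherins are calcium-dependent adhesion proteins that join neighbouring cells through their extracellular repeats, while their cytoplasmic tails bind catenins that link the junction to actin. Type I cadherins, such as N-cadherin (CDH2) and R-cadherin (CDH4), hold a conserved histidine-alanine-valine motif in the outermost repeat, which type II cadherins lack. N-cadherin is the classical cadherin of neural and mesenchymal cells, and type II cadherins are expressed in differing combinations in developing neurons, where they sort cells and guide contacts. CDH13 (T-cadherin) stands apart from both types, as it is held in the membrane by a lipid anchor and has no cytoplasmic tail.

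The targeted genes went against some of the labels, so conditions are named throughout as labelled. ARID1A was at 6097, 6374 and 6463 normalized reads in the Control libraries, and ARID1B at 5793, 5804 and 5791. In the libraries labelled shARID1A both genes were low, with ARID1A at 34.0% and 35.5% of the Control mean and ARID1B at 38.7% and 53.5% (shARID1A.2 and shARID1A.4). In the libraries labelled shARID1B it was ARID1A that was low, at 30.4% in shARID1B.2 and 39.3% in shARID1B.3, while ARID1B was at 86.3% and 105%. In the libraries labelled shARID1A/B it was ARID1B that was low, at 44.8% in shARID1A/B.2.3 and 32.9% in shARID1A/B.4.2, while ARID1A was at 89.7% and 86.2%. Libraries held 27954334 to 41077638 reads. The neuroblastoma markers MYCN (77312 to 426870) and GATA3 (7302 to 11433) were present in every library. Of the markers of other cells, PECAM1 of endothelium reached 2.81 and ALB of liver 13.0, while EPCAM lay between 58.4 and 226.6, KRT8 between 15.5 and 49.6 and PTPRC of blood cells between 57.3 and 426.2, highest in Control. The part of these genes in the results was not tested.

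The members lie on 4 chromosomes of GRCh38, and some are neighbours. CDH18 (chr5:19472951-20575873), CDH12 (chr5:21750673-22853622) and CDH10 (chr5:24487100-24644978), all on the minus strand, follow each other, with CDH6 (chr5:31193750-31329146, plus strand) farther along. CDH8 (chr16:61647242-62037035) and CDH11 (chr16:64943753-65126112) lie on the minus strand of chromosome 16 and CDH13 (chr16:82626803-83800640) on its plus strand. CDH2 (chr18:27950966-28177446, minus strand) and CDH7 (chr18:65750252-65890341, plus strand) are both on chromosome 18, and CDH4 (chr20:61252426-61940617, plus strand) is on chromosome 20. RefSeq start sites on GRCh38.p14 were given for 7 of the 10 members. The 250 bases before the start are shown for CDH2, which was low in the silenced conditions, for CDH7 and CDH12, which were high, and for CDH18, which differed between conditions of the same label. CG dinucleotides are in capitals.
CDH2: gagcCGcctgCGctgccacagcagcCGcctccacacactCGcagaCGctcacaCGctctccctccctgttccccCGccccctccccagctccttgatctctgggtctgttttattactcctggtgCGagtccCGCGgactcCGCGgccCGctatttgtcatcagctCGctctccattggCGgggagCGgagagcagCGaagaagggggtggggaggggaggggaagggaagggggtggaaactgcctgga
CDH7: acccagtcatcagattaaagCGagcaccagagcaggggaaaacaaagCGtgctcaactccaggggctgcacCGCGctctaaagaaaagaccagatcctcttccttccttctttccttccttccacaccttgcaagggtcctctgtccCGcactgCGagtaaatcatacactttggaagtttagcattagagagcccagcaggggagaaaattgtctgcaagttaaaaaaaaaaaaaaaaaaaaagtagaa
CDH12: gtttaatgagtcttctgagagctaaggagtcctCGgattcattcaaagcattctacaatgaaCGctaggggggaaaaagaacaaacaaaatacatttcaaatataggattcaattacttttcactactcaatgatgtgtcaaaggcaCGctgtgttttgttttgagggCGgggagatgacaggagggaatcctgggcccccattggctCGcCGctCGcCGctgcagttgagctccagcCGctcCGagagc
CDH18: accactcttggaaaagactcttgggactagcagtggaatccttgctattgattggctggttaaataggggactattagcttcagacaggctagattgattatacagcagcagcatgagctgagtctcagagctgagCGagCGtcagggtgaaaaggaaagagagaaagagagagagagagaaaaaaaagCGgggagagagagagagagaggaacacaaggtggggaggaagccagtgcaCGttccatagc
The stretch of CDH2 (chr18:28177131-28177380, minus strand) held 17 CG dinucleotides at 66.0% G or C, and 39.0% of 35116 promoters held as many or more. That of CDH7 (chr18:65750002-65750251, plus strand) held 6 at 45.6%, and 41.1% of promoters held as few or fewer. That of CDH12 (chr5:22853345-22853594, minus strand) held 10 at 48.0%, close to the median of 11. That of CDH18 (chr5:20575714-20575963, minus strand) held 4 at 48.4%, with 34.3% of promoters at as few or fewer. None of the 4 stood far from the bulk of promoters in this count. The letters CACCTG, the site of SNAI and ZEB repressors, searched on both strands, were in none of these 4, and 17.5% of all promoters held them. Of the 7 members with an entry, CDH4 alone held them, in an entry 246995 bases inside the gene from its start given above. The stretch before that start of CDH4 was not searched. The AP-1 letters TGANTCA, also on both strands, were in none of the 7 entries, against 6.57% of all promoters. The RefSeq starts of CDH2, CDH8, CDH12 and CDH18 also lay inside the gene, by 316, 597, 278 and 160 bases. The stretches shown for CDH2 and CDH12 therefore lie within the annotated gene, and that of CDH18 in part.

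CDH2 was by far the most abundant member, at 3404 normalized reads per kilobase of exon in Control, against 142 for CDH11, 71.3 for CDH10, 55.7 for CDH18, 40.5 for CDH4 and 5.18 for CDH6. CDH7 (0.762), CDH12 (0.623), CDH13 (0.462) and CDH8 (0.108) were at the bottom of this scale. The Control cells therefore held mainly N-cadherin transcripts among the 10.

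Of the type I genes, CDH2 was at 16973, 16874 and 16707 normalized reads in Control, a mean of 16852 ± 135 (SD, n = 3). It was at 4659, 5035 and 4872 in shARID1A.2, at 9368, 9520.4 and 9650.3 in shARID1A.4, at 6484, 6910.1 and 6470.04 in shARID1B.2 and at 14013, 14609.5 and 14431 in shARID1B.3. In shARID1A/B.2.3 it was at 9899.7, 10096 and 9945, and in shARID1A/B.4.2 at 5247, 5379 and 5262. All 18 silenced libraries lay below the lowest Control library, and no condition overlapped with its neighbour in order. The deepest levels, at 28.8%, 31.4% and 39.3% of the Control mean, were in shARID1A.2, shARID1A/B.4.2 and shARID1B.2, and shARID1B.3 kept 85.2%. CDH4, the retinal cadherin that can pair with N-cadherin, was at 312.4, 312.3 and 269.1 in Control. Its values were between 105.5 and 135.9 in shARID1A.2, 161.7 and 221.4 in shARID1A.4, 228.1 and 253.8 in shARID1B.2, 106.4 and 178.2 in shARID1B.3 and 172.3 and 192.2 in shARID1A/B.4.2. CDH4 was thus under the Control libraries in 5 conditions, while its 346.3, 347.0 and 328.9 in shARID1A/B.2.3 were above them.

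**Figure D1:**
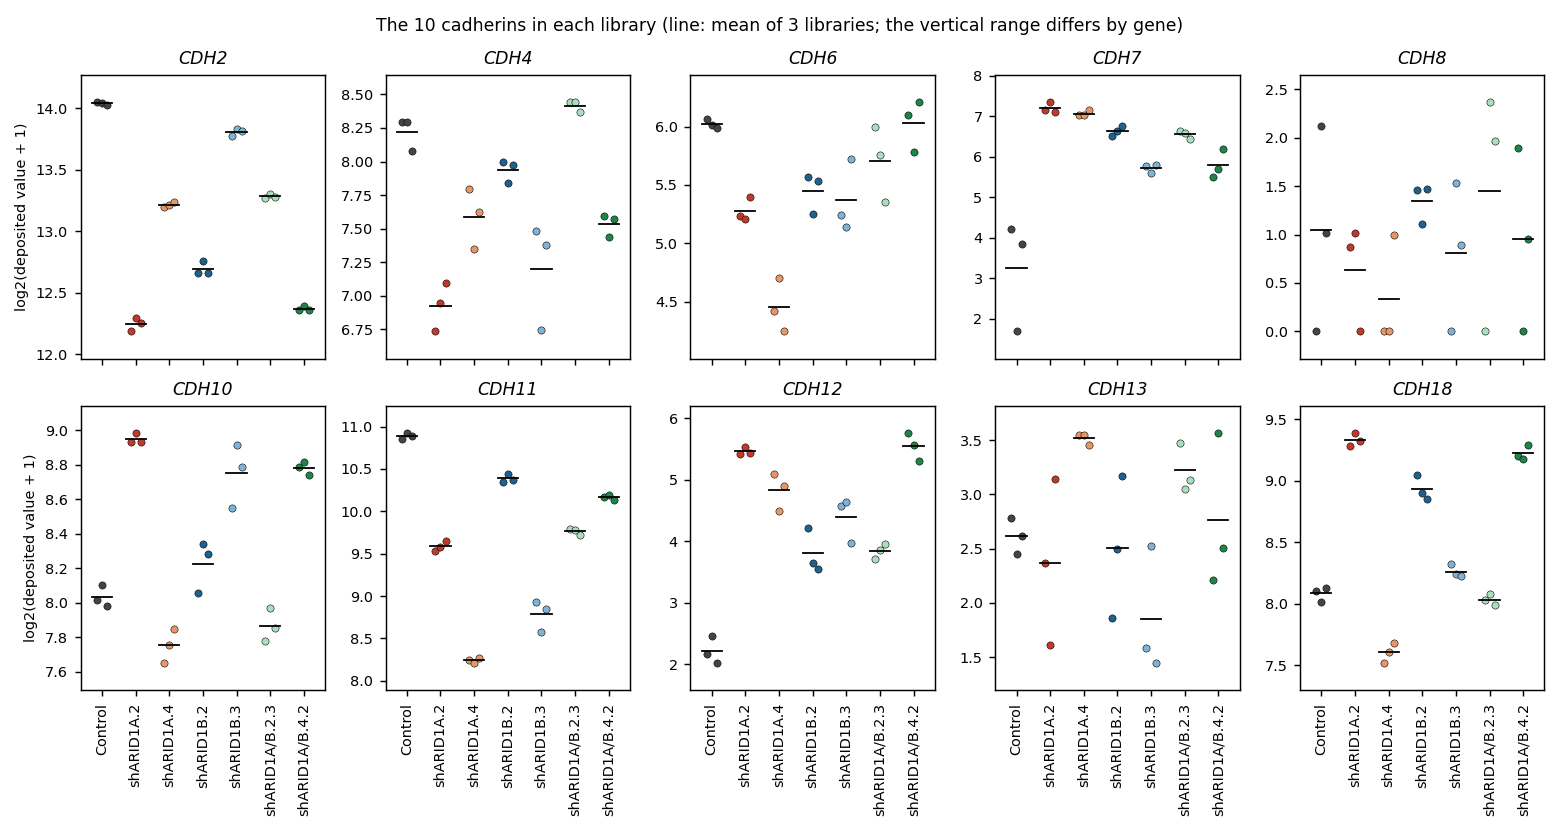
Log2 of the deposited value plus 1 for each of the 10 cadherins, with 1 point per library and a line at the mean of the 3 libraries of each of the 7 conditions. CDH2 and CDH11 are highest in Control, CDH7 and CDH12 are lowest there, and CDH8 and CDH13 scatter near the bottom of the scale.

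Of the type II genes, CDH11, a cadherin of mesenchymal and bone-forming cells, was at 1852, 1936 and 1894 in Control, a mean of 1894 ± 42.0 (SD, n = 3). It was at 738, 766 and 805 in shARID1A.2, at 302, 296 and 308 in shARID1A.4, at 1306, 1394 and 1318 in shARID1B.2 and at 489, 382 and 461 in shARID1B.3. In shARID1A/B.2.3 it was at 888, 879 and 844, and in shARID1A/B.4.2 at 1149.6, 1167 and 1126. CDH11 was therefore below Control in all 6 conditions with no overlap between neighbours, and its order was not that of CDH2. It was lowest in shARID1A.4 (16.0% of the Control mean) and shARID1B.3 (23.4%) and highest of the silenced conditions in shARID1B.2 (70.7%). CDH6, a cadherin of kidney and neural crest, was at 65.8, 63.8 and 62.7 in Control and between 18.0 and 25.0 in shARID1A.4. It was between 36.1 and 41.2 in shARID1A.2, 37.1 and 46.4 in shARID1B.2 and 34.2 and 51.8 in shARID1B.3. In both shARID1A/B conditions, with 39.9 to 62.8 and 54.1 to 73.1, its libraries overlapped with Control.

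CDH7, a type II cadherin of neural crest and spinal cord in vertebrate embryos, was at 17.62, 2.24 and 13.35 in Control, which came from 30 reads in the 3 libraries together. It was at 141.3, 162.7 and 137.0 in shARID1A.2, at 130.1, 129.6 and 140.7 in shARID1A.4, at 91.0, 98.4 and 108.5 in shARID1B.2 and at 53.8, 47.5 and 54.4 in shARID1B.3. In shARID1A/B.2.3 it was at 99.2, 94.8 and 86.6, and in shARID1A/B.4.2 at 44.6, 51.0 and 72.1. Every silenced library was above every Control library, and the 2 conditions labelled shARID1A, the libraries with both ARID1A and ARID1B low, were the highest. As ratios of summed reads scaled by library, CDH7 was 13.3 times the Control level in shARID1A.2 (9.19 to 19.9), 12.1 in shARID1A.4 (8.35 to 18.2), 9.001 in shARID1B.2 (6.18 to 13.6), 4.71 in shARID1B.3 (3.18 to 7.19), 8.47 in shARID1A/B.2.3 (5.80 to 12.8) and 5.03 in shARID1A/B.4.2 (3.41 to 7.66). The bounds are exact 95% intervals that cover counting error only. Control replicate 2 held 2 reads of CDH7 and the other Control libraries 15 and 13, so the Control level itself is loosely set.

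CDH12, a brain cadherin, was also scarce in Control, at 3.52, 4.48 and 3.08 from 10 reads in all. It was at 41.55, 45.32 and 42.32 in shARID1A.2 and at 52.83, 46.35 and 38.40 in shARID1A/B.4.2, which overlapped and were the highest. It was between 21.4 and 33.0 in shARID1A.4, 10.7 and 17.5 in shARID1B.2, 14.7 and 23.8 in shARID1B.3 and 12.2 and 14.6 in shARID1A/B.2.3. All 18 silenced libraries were above the Control libraries, at 3.65 (1.80 to 8.15) times their level in shARID1B.2 up to 12.5 (6.62 to 26.6) times in shARID1A/B.4.2. CDH12 and CDH7 thus shared the side of Control in every condition but not the order, since shARID1A/B.4.2 was the highest for CDH12 and the second lowest silenced condition for CDH7.

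CDH18 and CDH10, the other brain cadherins of the chromosome 5 run, lay on both sides of Control. CDH18 was at 274.8, 257.4 and 279.4 in Control, at 623.2, 668.5 and 639.2 in shARID1A.2 and at 182.6, 193.8 and 204.6 in shARID1A.4. It was between 461.5 and 529.6 in shARID1B.2, 298.8 and 318.6 in shARID1B.3 and 577.8 and 626.6 in shARID1A/B.4.2, and its 253.0 to 269.9 in shARID1A/B.2.3 overlapped with Control. CDH18 was therefore above Control in 4 conditions and below it in 1. CDH10 was at 257.2, 274.2 and 251.6 in Control, at 486.9, 504.7 and 486.7 in shARID1A.2 and at 200.1, 215.2 and 229.5 in shARID1A.4. It was between 373.3 and 481.7 in shARID1B.3 and 426.2 and 449.6 in shARID1A/B.4.2, while 218.7 to 249.0 in shARID1A/B.2.3 lay below Control and 265.2 to 323.0 in shARID1B.2 overlapped with it. CDH13 was between 1.73 and 10.8 in all 21 libraries and above Control in shARID1A.4 (9.98 to 10.7, against 4.48 to 5.87) and shARID1A/B.2.3 (7.29 to 10.1). CDH8, at 0 to 4.17 with no more than 4 reads in a library, overlapped with Control in all 6 conditions.

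**Figure D2:**
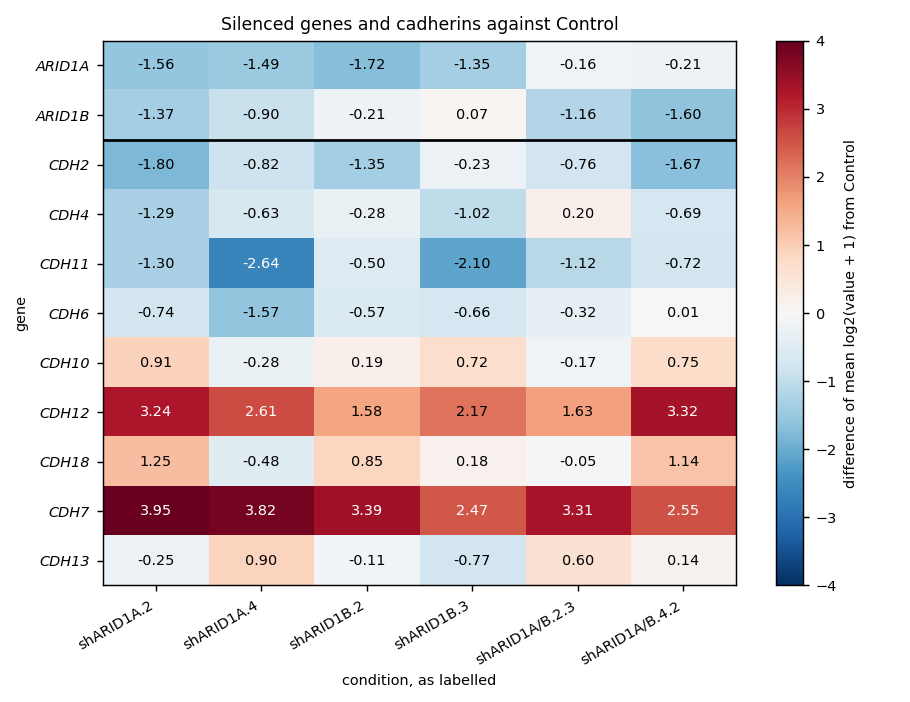
Difference of mean log2(value + 1) between each of the 6 silenced conditions and Control, with 3 libraries each, for ARID1A and ARID1B above the line and for 9 cadherins below it. CDH7 (2.47 to 3.95) and CDH12 (1.58 to 3.32) are positive in all 6 columns, and CDH2 (-1.80 to -0.23) and CDH11 (-2.64 to -0.50) negative in all 6.

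On the log2(value + 1) scale, on which the change of a low gene is understated, CDH7 stood 2.47 to 3.95 above Control and CDH12 1.58 to 3.32 above it. CDH2 stood 0.23 (shARID1B.3) to 1.80 (shARID1A.2) below Control and CDH11 0.50 (shARID1B.2) to 2.64 (shARID1A.4) below it. Of the 10 members, the libraries of 4 lay on the same side of Control in all 6 conditions, namely these. Over all 18584 genes tested this held for 14.7%. With limma at an adjusted p under 0.05, the share that differed from Control was 76.1% in shARID1A.2, 73.6% in shARID1A.4, 65.6% in shARID1B.2, 63.9% in shARID1B.3, 69.2% in shARID1A/B.2.3 and 71.2% in shARID1A/B.4.2. Since the members were selected on these contrasts, nothing is read from their count against any of these shares.

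The silenced conditions were then set against each other, with no Control library in the contrast, to describe how the members differed within labels and between them. Since each condition is 1 shRNA or 1 combination, this cannot tell the shRNA from the degree of silencing. Of the 10 members 9 passed the filter on low counts, all but CDH8, and p-values were adjusted over all 18584 genes. The spread of each gene was estimated over all 21 libraries, Control included. Between the conditions of the same label, 8 of the 9 differed in shARID1A (75.8% of all genes did), 7 in shARID1B (66.0%) and 6 in shARID1A/B (74.9%). These shares are near the background. CDH13, which passed the filter at few reads, is in the first count, which is 7 of 8 without it. With a log2 difference of at least 1 also required, 4, 2 and 2 of the 9 differed, against 23.9%, 13.7% and 22.3% of all genes, and the first count is 3 of 8 without CDH13. The median size of the difference over the 9 members, CDH13 included, was 0.97, 0.67 and 0.88, beside 0.53, 0.37 and 0.51 over all genes. The members were chosen on values from these same silenced libraries. Nothing is therefore read from their counts or medians against those of all genes.

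CDH2 was lower in shARID1A.2 than in shARID1A.4 by 0.97 on the log2 scale (SE 0.027, adjusted p = 1.54e-20, limma), lower in shARID1B.2 than in shARID1B.3 by 1.12 (SE 0.027, adjusted p = 2.23e-21) and lower in shARID1A/B.4.2 than in shARID1A/B.2.3 by 0.91 (SE 0.027, adjusted p = 6.22e-20). CDH11 went the other way in each pair. It was higher in shARID1A.2 by 1.35 (SE 0.059, adjusted p = 2.14e-16), in shARID1B.2 by 1.60 (SE 0.059, adjusted p = 1.32e-17) and in shARID1A/B.4.2 by 0.40 (SE 0.059, adjusted p = 1.62e-06). Thus in each of the 3 same-label pairs, the condition with less CDH2 held more CDH11, although both genes were below Control in both. CDH18 was higher in the same 3 conditions, by 1.73 (SE 0.062, adjusted p = 3.48e-18), 0.67 (SE 0.062, adjusted p = 7.19e-10) and 1.19 (SE 0.062, adjusted p = 7.75e-15). None of these 9 calls was lost under any alternative that was run. The same 3 conditions had lower means of the genes that were low, though the ARID1A libraries of the shARID1A conditions overlapped. ARID1A was at 2146 ± 32.1 in shARID1A.2 against 2243 ± 74.8 in shARID1A.4 and 1920 ± 40.2 in shARID1B.2 against 2479 ± 28.5 in shARID1B.3. ARID1B was at 2241 ± 15.3 in shARID1A.2 against 3100 ± 31.5 in shARID1A.4, and at 1907 ± 41.3 in shARID1A/B.4.2 against 2599 ± 55.5 in shARID1A/B.2.3 (SD, n = 3). The part of the remaining ARID1A and ARID1B in the differences was not tested.

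**Figure D3:**
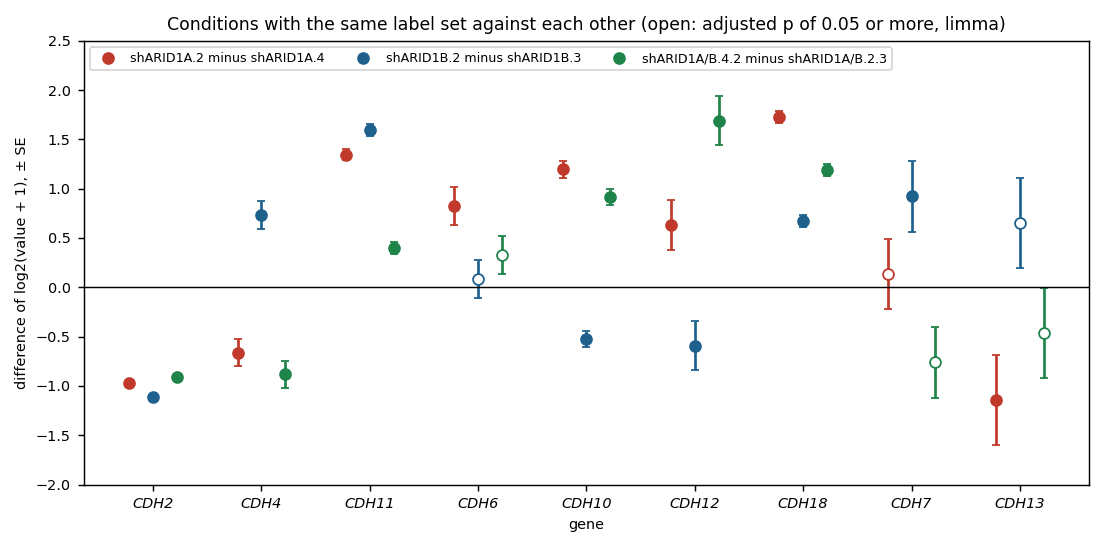
Differences of log2(value + 1) between the 2 conditions of each label, with the standard error of the limma fit, for the 9 cadherins tested. CDH2 is negative and CDH6, CDH11 and CDH18 are positive in all 3 contrasts, though CDH6 passed the test between the shARID1A conditions alone. CDH4, CDH7, CDH10, CDH12 and CDH13 change sign between the contrasts.

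Apart from CDH6, the other members had no common direction over the 3 pairs. CDH4 was lower in shARID1A.2 than in shARID1A.4 by 0.66 (SE 0.14, adjusted p = 0.000149), higher in shARID1B.2 than in shARID1B.3 by 0.73 (SE 0.14, adjusted p = 5.52e-05) and lower in shARID1A/B.4.2 by 0.88 (SE 0.14, adjusted p = 3.84e-06). CDH10 was higher in shARID1A.2 by 1.20 (SE 0.084, adjusted p = 2.37e-12) and in shARID1A/B.4.2 by 0.91 (SE 0.084, adjusted p = 4.42e-10), but lower in shARID1B.2 by 0.52 (SE 0.084, adjusted p = 5.68e-06). CDH12 was 1.69 higher in shARID1A/B.4.2 than in shARID1A/B.2.3 (SE 0.25, adjusted p = 1.69e-06). Its differences of 0.63 in shARID1A (adjusted p = 0.0264) and -0.59 in shARID1B (adjusted p = 0.0432) passed only narrowly. The former was lost without any single library of 3, at 0.46 to 0.65, and the latter without any of 8, at -0.59 to -0.46. CDH6 was higher in shARID1A.2 than in shARID1A.4 by 0.83 (SE 0.19, adjusted p = 0.00045), and its 0.08 in shARID1B.2 (adjusted p = 0.723) and 0.33 in shARID1A/B.4.2 (adjusted p = 0.127) did not pass, the latter passing without shARID1A/B.2.3 replicate 1 (-0.47 for shARID1A/B.2.3 minus shARID1A/B.4.2) or with scaling to total reads (-0.48, adjusted p = 0.0264). CDH7 showed little difference between the shARID1A conditions (0.14, SE 0.36, adjusted p = 0.741), was higher in shARID1B.2 than in shARID1B.3 by 0.92 (SE 0.36, adjusted p = 0.027) and did not pass between the shARID1A/B conditions (0.76 higher in shARID1A/B.2.3, SE 0.36, adjusted p = 0.0593). The shARID1B call of CDH7 was lost without shARID1B.2 replicate 2 or 3 or shARID1B.3 replicate 2, at 0.86 to 0.93, and the shARID1A/B difference passed without Control replicate 1 or 2 or shARID1A/B.4.2 replicate 3, at 0.76 to 0.95. That difference was also called by edgeR and DESeq2, with a pseudocount of 5 and with only the libraries compared, at 0.72 to 0.76 (adjusted p from 0.000161 to 0.012). The SE of CDH7 rests largely on the Control libraries. Its SD of log2(value + 1) was 1.36 in Control and 0.07 to 0.35 in the silenced conditions. A failed or narrow call of CDH7 is therefore not read as a lack of difference. CDH13, at 2 to 14 reads in a library, passed the filter mainly through shARID1A.4 (9 to 11 reads), so no test of it is read. Its difference between shARID1A.2 and shARID1A.4 was -1.15.

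Between labels, each taken as the mean of its 2 conditions, all 9 tested members differed between shARID1A and shARID1B (67.3% of all genes), 7 between shARID1A and shARID1A/B (59.2%) and 7 between shARID1A/B and shARID1B (70.2%). Without CDH13 these counts are 8, 7 and 6 of 8. The members were chosen from the same libraries, so nothing is read from these counts against the shares. Few of the differences were large. With a log2 difference of at least 1 required, 1, 1 and 0 members passed, against 6.03%, 3.62% and 8.03% of all genes. CDH7 was higher in the libraries labelled shARID1A, with both ARID1A and ARID1B low, than in those labelled shARID1B, with ARID1A low, by 0.95 (SE 0.25, adjusted p = 0.00189, limma). It was higher there than in those labelled shARID1A/B, with ARID1B low, by 0.96 (SE 0.25, adjusted p = 0.00222). The latter labels differed in CDH7 by 0.00 (SE 0.25, adjusted p = 0.994). Within them, however, CDH7 differed by 0.92 between the shARID1B conditions and by 0.76 between the shARID1A/B conditions, nearly as much as between labels. As a label mean, CDH11 was lowest in shARID1A, by 0.67 against shARID1B (SE 0.042, adjusted p = 4.12e-13) and by 1.05 against shARID1A/B (SE 0.042, adjusted p = 1.81e-16), and CDH6 by 0.54 (SE 0.14, adjusted p = 0.00113) and 0.999 (SE 0.14, adjusted p = 7.54e-07). By condition, however, CDH11 was lower in shARID1B.3 (a mean of 444) than in shARID1A.2 (770). Its conditions differed by 1.35 within shARID1A and by 1.60 within shARID1B, more than these labels did. CDH2 was lower in shARID1A than in shARID1B by 0.52 (SE 0.019, adjusted p = 9.78e-18) but lower than in shARID1A/B by only 0.10 (SE 0.019, adjusted p = 9.29e-05). For CDH2 these label means average conditions that differed more from each other (0.91 to 1.12) than the labels did. In every label contrast, the SE and p come from the spread between replicate libraries of all 7 conditions, Control included. They do not measure the spread between shRNAs.

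CDH4 was lower in shARID1A than in shARID1A/B by 0.72 (SE 0.098, adjusted p = 8.73e-07) and than in shARID1B by 0.31 (SE 0.098, adjusted p = 0.00753). CDH12 was higher in shARID1A than in shARID1B by 1.05 (SE 0.18, adjusted p = 1.41e-05), while its 0.45 against shARID1A/B (SE 0.18, adjusted p = 0.0333) was lost without any of 7 libraries, at 0.38 to 0.46. CDH18 and CDH10, which differed strongly within labels, differed by at most 0.16 between them. The CDH10 difference of -0.14 between shARID1A and shARID1B (adjusted p = 0.0428) was lost without any of 8 libraries, at -0.14 to -0.10, and that of -0.16 between shARID1A/B and shARID1B (adjusted p = 0.0164) without shARID1B.2 replicate 2 or shARID1B.3 replicate 2, at -0.14 and -0.12. For CDH13, again with no test read, the differences were 0.77 between shARID1A and shARID1B and 0.81 between shARID1A/B and shARID1B.

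The genes whose condition means followed a member most closely were named as a description over 7 points, among 13674 genes. For CDH2 they were EP300, a histone acetyltransferase (Pearson r = 0.994), SLC39A6, a zinc transporter of the plasma membrane (0.993), and ATRN (0.991). SLC39A6 was at 5962 in Control and 2929 in shARID1A.2 on average. For CDH7 they were GABRB1, a GABA-A receptor subunit (0.993), the lncRNA AC107398.3 (0.986) and OSCP1 (0.980), and GABRB1 was at 11.1 in Control and between 48.4 and 119.8 in the silenced conditions. For CDH11 they were XPO1, the nuclear export receptor (0.982), MSRB1 (0.981) and GOLIM4 (0.980). With 7 means that share the same libraries, many genes reach such values.

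Of 12 further type I, type II and near cadherins, 7 passed the filter, and CDH1 (E-cadherin), CDH9, CDH16, CDH17 and CDH19 did not. CDH1 was at 5.41 or lower in all 21 libraries. Against Control, limma called 4 of the 7 in shARID1A.2 (1 higher), 5 in shARID1A.4 (2 higher), 3 in shARID1B.2 (0 higher), 3 in shARID1B.3 (1 higher), 5 in shARID1A/B.2.3 (2 higher) and 5 in shARID1A/B.4.2 (4 higher). Included here are CDH5, CDH15 and CDH20, which passed the filter mainly through the libraries where they were highest, so no test of them is read. The background shares were 76.1%, 73.6%, 65.6%, 63.9%, 69.2% and 71.2%. The counts were near these shares or below them, but they hold those 3 genes, so nothing is read from the comparison. Most of the 7 genes were scarce. The exception was CDH24, a type II cadherin that at 1111 normalized reads per kilobase in Control stood between CDH2 and CDH11. It was at 4016, 4207 and 4272 in Control and fell in the 4 conditions with low ARID1A, by 1.19 in shARID1A.2, 1.25 in shARID1A.4, 0.71 in shARID1B.2 and 1.14 in shARID1B.3 (SE 0.041, adjusted p of 1.31e-13 or less, limma). In shARID1A/B.2.3, at 3952 to 3963, the difference was -0.07 (adjusted p = 0.12), and in shARID1A/B.4.2 CDH24 rose by 0.27 (adjusted p = 2.65e-06). The shARID1A/B.2.3 libraries all lay below the Control libraries. Their difference passed without shARID1B.3 replicate 1 (-0.07, adjusted p = 0.0443) and with only the libraries compared (-0.07, adjusted p = 0.0287). It turned to 0.0013 under upper-quartile scaling. CDH24 was lower in shARID1A than in shARID1A/B by 1.32 (SE 0.029, adjusted p = 2.34e-21) and higher in shARID1A/B than in shARID1B by 1.02 (SE 0.029, adjusted p = 4.71e-20). In the conditions labelled shARID1A/B, where CDH24 was not called lower in the main test, CDH2 and CDH11 lay below Control by 0.72 to 1.67.

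**Figure D4:**
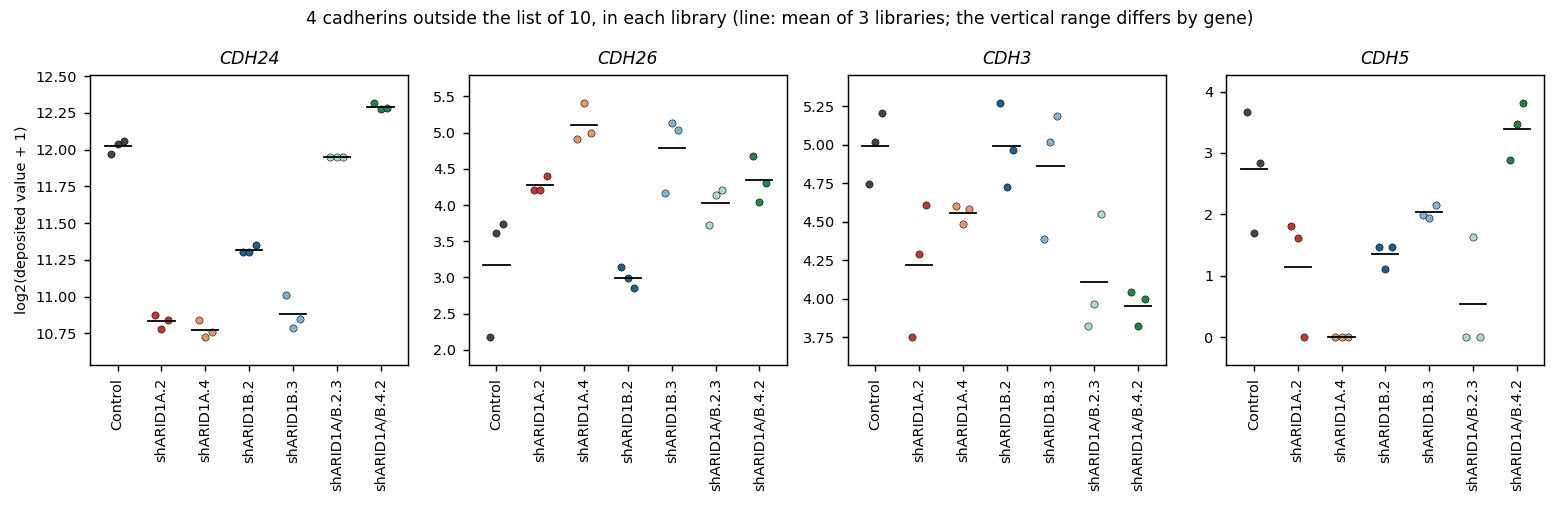
Log2 of the deposited value plus 1 for 4 cadherins outside the list of 10, with 1 point per library and a line at the mean of 3 libraries. CDH24, at 1691 to 5111 normalized reads, is lower in the conditions labelled shARID1A and shARID1B, while CDH26, CDH3 and CDH5 are scarce and scatter.

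CDH26 rose in 5 conditions, by 0.85 (shARID1A/B.2.3) to 1.93 (shARID1A.4), from 3.52 to 12.3 normalized reads in Control. Without Control replicate 1, 3 of these calls were lost, at 0.60 in shARID1A.2, 0.35 in shARID1A/B.2.3 and 0.67 in shARID1A/B.4.2, and the shARID1A/B.2.3 call was also lost without its own replicate 2 or 3, at 0.79 or lower. CDH3 (P-cadherin) fell in shARID1A.2, shARID1A/B.2.3 and shARID1A/B.4.2, by 0.77, 0.88 and 1.04, and the shARID1A.2 call was lost without its replicate 1 (-0.54). CDH5, the endothelial VE-cadherin, was at 11.75, 2.24 and 6.16 in Control from 18 reads and had 0 reads in all 3 libraries of shARID1A.4, so no fold is given there. It was called lower in 4 conditions and was at 6.38 to 13.1 in shARID1A/B.4.2, a difference of 0.65 (adjusted p = 0.34). CDH5 passed the filter on low counts through Control replicate 1 (10 reads) and shARID1A/B.4.2 replicates 2 and 3 (13 and 14 reads), where it was highest. Its tests are therefore not read. The study also named CDH5 from these samples, so its values are not independent evidence of its direction. Its call in shARID1A.2 was lost without Control replicate 1 or shARID1A.2 replicate 3, at -1.13 and -1.03, and its call in shARID1B.2 without any of 12 libraries, at -1.45 to -0.92.

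The proteins that cadherin tails bind are catenins, which tie them to actin. Of 12 catenins and actin linkers 11 were tested, all but CTNNA3, and 10, 10, 11, 8, 7 and 11 were called against Control in the order of conditions above, of which 9, 8, 9, 6, 6 and 10 were lower. The number called was near or somewhat above the background, and the median difference over the 11 was -0.51, -0.32, -0.43, -0.13, -0.18 and -0.34, beside 0.01 to 0.02 over all genes. AFDN (afadin), which links nectins to actin, fell in all 6, by 0.23 to 0.60. CTNNA2, the neural alpha-catenin, fell in 5 by 0.39 to 0.87 and stood at -0.04 in shARID1B.3 (adjusted p = 0.365). CTNNA1, the ubiquitous alpha-catenin, was lower in all 6 by 0.08 to 0.46, but it turned higher in shARID1A.2 (0.07), shARID1B.2 (0.06) and shARID1A/B.4.2 (0.02) with scaling to total reads. JUP (plakoglobin) fell in 5 by 0.18 to 1.39 and rose in shARID1A/B.4.2 by 0.80, and its -0.23 in shARID1A.2 was -0.06 (adjusted p = 0.155) with scaling to total reads.

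Nectins start adherens junctions together with cadherins, and 3 of 4 were tested, all but NECTIN4. All 3 were called in the shARID1A and shARID1B conditions and 2 in each shARID1A/B condition, of few genes and beside the background of 63.9% to 76.1%. NECTIN1 rose in all 6, from 0.77 in shARID1A/B.4.2 to 2.51 in shARID1A.4 (SE 0.027, adjusted p of 2.69e-18 or less). NECTIN3, its trans partner, fell in 5 by 0.51 to 1.48 and stood at -0.08 in shARID1A/B.4.2 (adjusted p = 0.125). NECTIN2 was higher in 3 and lower in 2, and its 0.13 in shARID1A.2 (adjusted p = 0.0393) was lost without Control replicate 1 or 2 or shARID1A.2 replicate 1 or 3, at 0.09 to 0.14.

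Of 12 genes for the processing, cleavage and turnover of cadherins, all 12 were tested and 12, 9, 8, 9, 8 and 10 were called, of which 6, 5, 3, 2, 5 and 4 were higher. Most of these counts are near the background of 63.9% to 76.1%, and they show no common direction. FURIN, the protease that removes cadherin propeptides, rose in all 6, by 0.28 (shARID1B.3) to 1.54 (shARID1A/B.2.3). ADAM10, which sheds the N-cadherin ectodomain, fell in 5 by 0.27 to 1.29 and stood at -0.01 in shARID1B.2 (adjusted p = 0.688). APH1A, a subunit of the gamma-secretase that cuts the stub left by ADAM10, rose in all 6 by 0.07 to 0.52, and FER, a kinase that binds p120-catenin, fell in all 6 by 0.28 to 1.02.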

How the data were processed

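Total RNA of SK-N-BE(2) cells was made into stranded polyadenylated-RNA libraries. For each gene and library the authors deposited a signal, the reads divided by 1 size factor per library (0.841 to 1.29). The submitters' processing notes name STAR 2.5.3a, RSEM 1.3.0, DESeq2 1.26.0 and GRCh38, and the annotation release and strand setting of counting are not given in the sources used here. Whole reads were recovered for 100% of values within 0.05 read (median 34973565 per library), although in 2 libraries the size factor is so near 1 that this shows little. Because the unit is not counts, the test was limma 3.58.1 (R 4.3.3) with a trend on log2(value + 1), over 21 libraries and 7 conditions, after edgeR's filter on recovered reads (18584 genes), with Benjamini-Hochberg adjustment at 0.05. Members were compared with Control without a test and with each other condition by limma. edgeR 4.0.16 and DESeq2 1.42.0 on recovered reads were alternatives. The members and gene lists were chosen with earlier results of these data known. All members are named, and at most 4 genes per other list, those called the same way in most conditions, ties by median size. For CDH2, CDH7 and CDH11, the 3 genes of highest Pearson r among those with a mean value of at least 50 are named. Also deposited were 3 tables of the authors' own comparisons (log2 fold changes and p-values), which were not used. The triplicates, numbered as replicates in the sample titles, differed beyond sampling noise in 21 of 21 pairs (chi-square per degree of freedom 1.58 to 4.85). Lengths and positions are from GENCODE release 29, and promoters from RefSeq (GRCh38.p14), where 7 of 10 members matched by symbol. The scripts were tested on simulated data. Alternatives were pseudocounts of 0.5 and 5, no filter, at least 10 reads in every library, scaling to total reads or the upper quartile, a replicate block, only the libraries compared, and each library left out.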

Additional observations from a re-analysis of the deposited data

Results flagged for a closer look

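Among the cadherins tested and the other genes named, the 2 conditions of a label lay on opposite sides of all 3 Control libraries, and differed from each other in limma over all genes tested, in the comparisons given here. CDH18 was above Control in shARID1A.2 (623.2 to 668.5) and below it in shARID1A.4 (182.6 to 204.6), a log2 difference of 1.73 (adjusted p = 3.48e-18). CDH10 was above in shARID1A.2 (486.7 to 504.7) and below in shARID1A.4 (200.1 to 229.5), a difference of 1.20 (adjusted p = 2.37e-12). Between shARID1A/B.2.3 and shARID1A/B.4.2, CDH10 differed by -0.91 (adjusted p = 4.42e-10) and CDH4 by 0.88 (adjusted p = 3.84e-06), with CDH4 above Control in the former and below it in the latter. CDH20, a type II cadherin outside the list, differed by -2.46, at 1.01 to 3.13 in shARID1A/B.2.3 against 14.7 to 18.7 in shARID1A/B.4.2 and 4.70 to 8.22 in Control. It passed the filter on low counts through shARID1A/B.4.2, its highest condition, so its test is not read. CDH24 differed by -0.34 (adjusted p = 5.37e-08), and under upper-quartile scaling its shARID1A/B.2.3 value was at Control (0.0013). Of the other genes named, NECTIN2 differed by 0.87 between shARID1A.2 and shARID1A.4 (adjusted p = 4.15e-13) and by 0.60 between shARID1B.2 and shARID1B.3 (adjusted p = 7.2e-10), CLSTN2 by 1.76 between shARID1B.2 and shARID1B.3 (adjusted p = 2.39e-16) and JUP by -0.99 between shARID1A/B.2.3 and shARID1A/B.4.2 (adjusted p = 9.42e-19). The mean of such a pair hides values on both sides of Control, and the part of the shRNA was not tested.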

How the results depend on the processing

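Under the alternatives, 536 counts of called genes stayed within 1.5 times the main count and 28 did not, while 4272 single-gene tests kept direction and call, 113 lost the call, 11 gained it and 38 changed sign. The cause was not tested. Low reads limit CDH7, CDH8, CDH12, CDH13, CDH26, CDH3 and CDH5. Calls that also needed a log2 difference of at least 1, chosen after seeing the data, left 4, 2, 2, 1, 1 and 0 members of 8, 7, 6, 9, 7 and 7. Of the other cadherins called against Control, at least 10 reads in every library left 2, 1, 1, 1, 1 and 2, in the order of conditions used above, as fewer genes were then tested. In shARID1B.2 the 3 calls were 1 under DESeq2, pseudocount 0.5, both scalings and the replicate block, and 1 to 3 with a library left out. DESeq2 gave 3 in shARID1A/B.2.3, no filter gave 5 in shARID1B.3, and shARID1A.2 fell to 2 without Control replicate 1 (range 2 to 5). Same-numbered libraries did not deviate together (residual correlations -0.196 to 0.143 over 13675 genes), and the replicate block gave 8, 7, 6, 9, 7 and 7 members.
Scaling moved the median of all genes against Control from 0.01 to 0.02 up to 0.04 to 0.20 (total reads) and 0.07 to 0.20 (upper quartile), and the share of calls that were higher from 48.2% to 50.9% up to 52.0% to 64.8% and 56.3% to 63.0%. Between silenced conditions that share went from 49.6% to 51.4% to 38.6% to 60.8% and 43.3% to 57.5%. With total reads, upper quartile or both, sign changed for CTNNA1 in shARID1A.2 (0.069, 0.079), shARID1B.2 (0.057, 0.039) and shARID1A/B.4.2 (0.021), NECTIN3 in shARID1A/B.4.2 (0.11, 0.084), ADAM10 in shARID1B.2 (0.12, 0.10, and 0.014 in edgeR), CDH3 in shARID1B.2 (0.13, 0.11, 0.038 in edgeR, 0.010 in DESeq2), CTNNA2 in shARID1B.3 (0.022), NECTIN2 in shARID1A/B.2.3 (0.013), CDH24 in shARID1A/B.2.3 (0.0013) and CDH7 between shARID1A/B and shARID1B (0.025, 0.026, 0.0056 in edgeR, 0.0080 in DESeq2), of which CTNNA1 alone was called. With a library left out, CDH6 between the shARID1B conditions ranged from -0.032 to 0.26, CDH7 between shARID1A/B and shARID1B from -0.10 to 0.070, CDH13 between shARID1A and shARID1A/B from -0.24 to 0.15, CDH26 in shARID1B.2 from -0.67 to 0.11, and CDH3 from -0.14 to 0.13 in shARID1B.2 and -0.29 to 0.11 in shARID1B.3.
The calls given above as lost with any single library of several were these. The call of CDH10 (shARID1A against shARID1B) was lost without shARID1A.2 replicate 1 or 3, shARID1A.4 replicate 1 or 2, shARID1B.2 replicate 2 or 3, shARID1B.3 replicate 2 or 3. The call of CDH12 (shARID1A against shARID1A/B) was lost without shARID1A.2 replicate 2 or 3, shARID1A.4 replicate 1 or 3, shARID1A/B.2.3 replicate 1, shARID1A/B.4.2 replicate 2 or 3. The call of CDH12 (shARID1A.2 against shARID1A.4) was lost without shARID1A.2 replicate 2 or 3, shARID1A.4 replicate 2. The call of CDH12 (shARID1B.2 against shARID1B.3) was lost without shARID1A.2 replicate 1 or 2 or 3, shARID1B.2 replicate 2 or 3, shARID1B.3 replicate 1 or 2, shARID1A/B.4.2 replicate 2. The call of CDH5 (shARID1B.2 against Control) was lost without Control replicate 1 or 3, shARID1A.2 replicate 2, shARID1B.2 replicate 1 or 2 or 3, shARID1B.3 replicate 1 or 2 or 3, shARID1A/B.4.2 replicate 1 or 2 or 3. edgeR lost the calls of CDH12 between the shARID1B conditions, CDH13 between shARID1A and shARID1B and CDH26 in shARID1A/B.2.3, and DESeq2 lost these and 8 more of CDH5, CDH10, CDH12, CDH13 and NECTIN2.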

Other observations

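More distant relatives of the cadherins, added as a list by family name after the data had been seen, were also measured. Of 25 FAT, Dachsous, CELSR, calsyntenin and cadherin-related genes, 14 passed the filter, and limma called 12 against Control in shARID1A.2 (6 higher), 12 in shARID1A.4 (7 higher), 11 in shARID1B.2 (6 higher), 10 in shARID1B.3 (3 higher), 13 in shARID1A/B.2.3 (10 higher) and 13 in shARID1A/B.4.2 (8 higher), beside 63.9% to 76.1% of all genes tested. DCHS1, the ligand of FAT4 in planar polarity, fell in all 6 conditions, by 0.52 in shARID1B.2 to 1.71 in shARID1A/B.4.2 (SE 0.029, adjusted p of 5.74e-14 or less). CELSR3 and CELSR2, multipass cadherins of axon guidance, rose in all 6, by 0.13 to 0.90 and by 0.18 to 0.95. CLSTN2, a synaptic calsyntenin, rose in 5 by 0.25 to 1.27 and fell by 1.05 in shARID1B.3 (adjusted p = 9.04e-12).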
